A study of Mus musculus with 6 samples.

Results

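The organic anion and bile acid uptake transporters of the liver were followed in mice that drank microcystin-LR (MC-LR) and in mice that did not. The genes were 8 carriers, Slco1a1, Slco1a4, Slco1a5, Slco1b2, Slco2a1, Slco2b1, Slc10a1 and Slc22a7, taken by the gene name that the array files give to each probe. They had 11 probes among the 41174 probes on the array that were not controls, and 10 of these 11 lay well above background. The mice were male BALB/c, 6 weeks old at the start. In the MC-LR group 3 mice received 100 µg/L MC-LR in their drinking water for 12 months, and in the control group 3 mice received sterile water for the same time. Liver RNA was read on 6 separate Agilent arrays with 1 dye. The sample titles number the arrays within each group and do not name the animals, so each array was taken as 1 mouse. Values are normalized log2 signals, on which a step of 1 is a doubling of signal, and values of different probes are not comparable with each other.

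MC-LR is a cyclic peptide made by cyanobacteria that inhibits protein phosphatases 1 and 2A. It is too polar to cross membranes unaided and enters hepatocytes through organic anion transporting polypeptides, the products of the Slco genes, which carry bile acids, bilirubin, steroid conjugates and many drugs from the blood across the basolateral membrane. Slc10a1 encodes NTCP, the sodium-dependent carrier that brings most conjugated bile acids back from portal blood, and Slc22a7 encodes OAT2, an organic anion transporter of a different family. Most of these genes are driven in hepatocytes by liver-enriched transcription factors, and in rodents some of them respond to growth hormone, androgens, bile acids and inflammatory cytokines.

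Between 64.9% and 73.7% of the spots on each array were well above background and 0 were saturated. Slide 1 carried controls 1 and 2, while slide 2 carried control 3 beside every MC-LR array and was the single slide with both groups. Control 3 stood apart from the other 5 arrays for more probes than any other array did: it lay more than 1 log2 unit below all others at 113 probes and more than 1 above all others at 218, against 5 to 87 below and 22 to 77 above for each of the other arrays. Differences that moved with it are therefore given with and without it. The hepatocyte marker Alb stood between 18.01 and 18.22 on all 6 arrays, and 9 of 10 hepatocyte markers were measured well above background. Not all were as steady. Control 3 was the lowest array for 3 of the 9 and the highest for 1, beside 23.3% and 21.1% of all genes. Apoa1 stood at 16.80, 16.68 and 15.70 in controls 1, 2 and 3. With MC-LR 1 of the 9 was higher and 1, Fgb, lower at an unadjusted p under 0.05 (limma), beside 7.52% and 5.36% of all genes. In whole liver, a lower signal from fewer cells of a type and a lower signal from less RNA per cell cannot be told apart.

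The probes are shown because neighbouring Slco genes are related in sequence and the results turn on which gene each probe reads. Along chromosome 6, in the gene order of the RefSeq annotation of GRCm38.p6, the Slco genes run Slco1c1, Slco1b2, Slco1a4, Slco1a1, Slco1a6 and Slco1a5. Among 52 pairs of probes of different members, the longest run of bases shared by a pair was 9. Only probes were compared, and no probe was compared with the transcript of another gene. Slco1a6, which is not a member, was not in these pairs. The shared runs therefore cannot show whether a probe also reads a related transcript. The first 30 bases are shown for the members whose signals spread most between arrays and for Slco1b2, the carrier best known for MC-LR uptake, 5′ to 3′ as the array files hold them and with positions on mm9, the build named in the file headers. Exon and UTR positions on mm9 were not used here.
Slco1a1 first probe, chr6:141857413-141857472, minus strand: ccaagttcgagaacgatggagaactgaaaa
Slco1a1 second probe, chr6:141857034-141857092, minus strand: ctgaatttatccttcaatgttggaggtatt
Slco1a4, chr6:141754675-141754734, minus strand: tatctcggtggatatgtgattgcctaatac
Slco1b2, chr6:141634476-141634535, plus strand: tcaaaatttgcatggtgctattctctcctg
Slc10a1, chr12:82061470-82061529, minus strand: cctacaaaggcattatgttatcactcgtca
Slc22a7, chr17:46569272-46569331, minus strand: cctgtgtttatccagtctccaaaaacagga

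The comparison asks whether the carriers that take up MC-LR and bile acids differ in expression after a year of exposure. No carrier passed the test. Of the 10 member probes well above background, 0 had an adjusted p under 0.05 (limma over all 28507 probes kept, Benjamini-Hochberg adjustment), beside 3 probes, or 0.0105%, of all probes. At an unadjusted p under 0.05 there was 1 member probe, of Slco2a1, beside 12.9% of all probes. All 3 MC-LR arrays lay above all 3 controls at 0 of the 10 member probes, against 11.7% of all probes. They lay below all controls at 1 of the 10, against 8.54%. The median log2 difference over the 8 genes, each by its brightest probe, was 0.14, against -0.01 over all 18905 genes. Without control 3 the median of the members was 0.02.

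**Figure D1:**
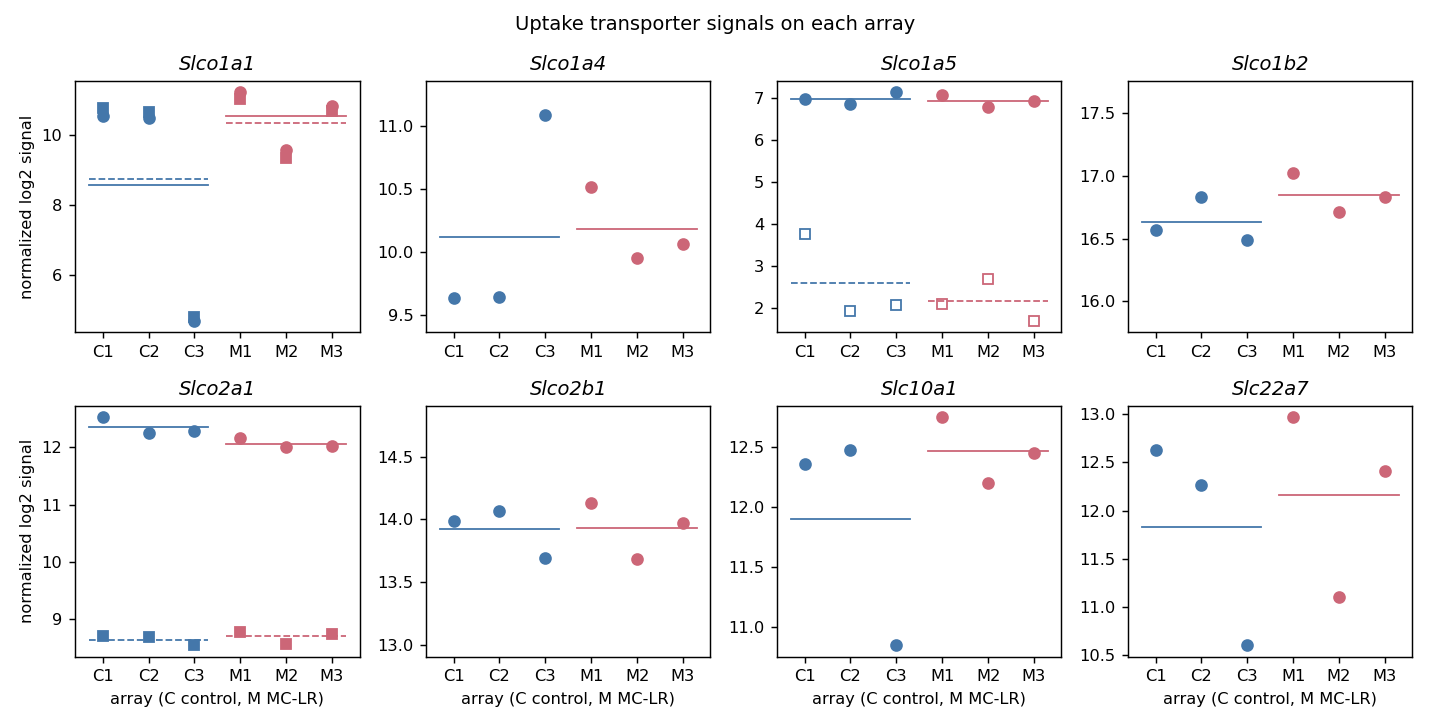
Normalized log2 signal (vertical axis, its own range in each panel) of the 8 transporters on the 6 arrays (horizontal axis, C1 to C3 control in blue, M1 to M3 MC-LR in red). Circles and squares are the first and second probe of a gene, lines are group means (solid for circles, dashed for squares), and open squares are a Slco1a5 probe not well above background. For Slco1a1, Slc10a1 and Slc22a7 control 3 is the lowest array, and for Slco1a4 it is the highest.

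Slco1b2 encodes OATP1B2, the main liver-specific organic anion transporting polypeptide of the mouse and the carrier best known for taking MC-LR into hepatocytes. Its signal stood at 16.57, 16.83 and 16.49 in controls 1, 2 and 3 and at 17.02, 16.71 and 16.83 in MC-LR 1, 2 and 3. The MC-LR arrays included the highest value, and the groups overlapped. The means were 16.63 ± 0.18 in controls and 16.85 ± 0.15 with MC-LR (SD, n = 3 each), a log2 difference of 0.23 ± 0.14 (SE; adjusted p = 0.533, limma). The 95% interval of the difference ran from -0.11 to 0.56. It was 0.16 ± 0.14 without control 3 (adjusted p = 0.578, limma), 0.143 without MC-LR 1, the highest array, and 0.36 both with a slide block and with 75th percentile scaling (range over alternatives of the adjusted p 0.412 to 0.838).

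Slco1a1 encodes OATP1A1, a carrier of bile acids and steroid sulfates that is known in mice as a male-predominant liver gene. Its first probe stood at 10.54, 10.47 and 4.69 in controls 1, 2 and 3 and at 11.20, 9.56 and 10.81 in the MC-LR arrays. Control 3 was far below every other array, while MC-LR 2 was the lowest of the rest. The second probe, which reads another stretch of the same transcript, gave the same order of low arrays, with 10.76, 10.63 and 4.79 in controls and 11.01, 9.33 and 10.66 with MC-LR. The log2 differences were 1.96 ± 1.61 (SE; adjusted p = 0.636, limma) at the first probe and 1.61 ± 1.64 (adjusted p = 0.707) at the second. The interval at the first probe, -1.96 to 5.87, held values in both directions. Without control 3 the differences were 0.02 ± 0.49 (adjusted p = 0.986, limma) and -0.36 ± 0.51 (adjusted p = 0.728). Blocking on slide, where control 3 is in effect the only control compared, gave 5.83 ± 0.62 (adjusted p = 0.125) and 5.54 ± 0.65 (adjusted p = 0.136). Over all alternatives run, the adjusted p ran from 0.125 to 0.986 and from 0.136 to 0.895. The size of the difference at both probes thus moved with the use of control 3.

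Slco1a4 encodes OATP1A4, a basolateral carrier of bile acids and cardiac glycosides that the xenobiotic receptor PXR is known to induce. It stood at 9.63, 9.64 and 11.09 in controls and at 10.52, 9.95 and 10.06 with MC-LR. Control 3 was here the highest of the 6 arrays, and all 3 MC-LR arrays lay between it and the other controls. The log2 difference was 0.06 ± 0.42 (SE; adjusted p = 0.969, limma). Without control 3 it was 0.54 ± 0.19, or 1.46-fold, with both remaining controls below all MC-LR arrays (unadjusted p = 0.0361, adjusted p = 0.213, limma). Of all 28507 probes, 5815 had an unadjusted p under 0.05 without control 3, and the share with groups apart was not counted in that setting. In that setting each group has a slide of its own, and the effects of slide and exposure cannot be told apart. Blocking on slide gave -0.91 ± 0.24 (adjusted p = 0.225), and over all alternatives run the adjusted p ran from 0.213 to 0.981. The direction for Slco1a4 therefore depended on which control was used.

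Slco1a5 encodes OATP1A5, a related carrier better known from intestine and brain barriers than from hepatocytes. Its measured probe, at chr6:142183294-142183353 of mm9 on the minus strand, stood at 6.96, 6.84 and 7.12 in controls and at 7.06, 6.78 and 6.92 with MC-LR, so the groups overlapped throughout. The difference was -0.05 ± 0.12 (log2, SE; adjusted p = 0.887, limma), and 0.02 ± 0.12 without control 3. A second probe of Slco1a5 was not well above background on any of the 6 arrays and entered no test.

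Slc10a1, which encodes NTCP, stood at 12.36, 12.48 and 10.85 in controls and at 12.75, 12.20 and 12.45 with MC-LR. Control 3 was the lowest array by 1.34 log2 units, and the other 5 arrays lay close together. The log2 difference was 0.57 ± 0.45 (SE; 95% interval -0.52 to 1.66; adjusted p = 0.622, limma). Without control 3 it was 0.05 ± 0.18 (adjusted p = 0.912), with an interval of -0.42 to 0.51. Blocking on slide gave 1.61 ± 0.23 (adjusted p = 0.137, range over alternatives 0.137 to 0.912).

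Slc22a7, which encodes the organic anion transporter OAT2, stood at 12.63, 12.26 and 10.60 in controls and at 12.97, 11.10 and 12.41 with MC-LR. Control 3 and MC-LR 2 were the low arrays, as at both probes of Slco1a1. The difference was 0.33 ± 0.68 (log2, SE; adjusted p = 0.865, limma), and without control 3 it was -0.28 ± 0.56 (adjusted p = 0.81). Blocking on slide gave 1.56 ± 0.71 (adjusted p = 0.376, range over alternatives 0.376 to 0.986).

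The Slco2 carriers varied little. Slco2a1 encodes the prostaglandin transporter, which clears prostaglandins from the extracellular space. Its brighter probe, at chr9:102990034-102990093 of mm9 on the plus strand, stood at 12.53, 12.26 and 12.29 in controls and at 12.16, 12.01 and 12.02 with MC-LR, so the groups did not overlap. The difference was -0.30 ± 0.12 (log2, SE; 0.815-fold; unadjusted p = 0.0438, adjusted p = 0.376, limma). Blocking on slide gave -0.22 ± 0.16 (adjusted p = 0.558, range over alternatives 0.237 to 0.723). The other Slco2a1 probe, for which the files give no genome position, stood at 8.70, 8.68 and 8.54 in controls and at 8.78, 8.57 and 8.74 with MC-LR. There the groups overlapped, with a difference of 0.06 ± 0.11 (adjusted p = 0.851), so the probes of this gene disagreed, and their mean differed by -0.12. Endothelial cells also express Slco2a1. All 12 endothelial markers lay below 0 in the same comparison, with a median log2 difference of -0.35 that was -0.02 with slide as a block, and 3 of 12 were lower at an unadjusted p under 0.05, beside 5.36% of all genes. By array, the median deviation of these markers from their own means ran from -0.10 to 0.32 in controls and from -0.30 to 0.01 with MC-LR. All 12 were well above background on all 6 arrays, and their part in the Slco2a1 value was not tested.

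Slco2b1 encodes OATP2B1, a carrier of steroid sulfates found in many tissues. Its probe, at chr7:106807008-106807067 of mm9 on the minus strand, stood at 13.99, 14.07 and 13.69 in controls and at 14.13, 13.68 and 13.97 with MC-LR. The groups overlapped, and the difference was 0.01 ± 0.17 (log2, SE; 95% interval -0.39 to 0.41; adjusted p = 0.986, limma). Without control 3 it was -0.10 ± 0.16.

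**Figure D2:**
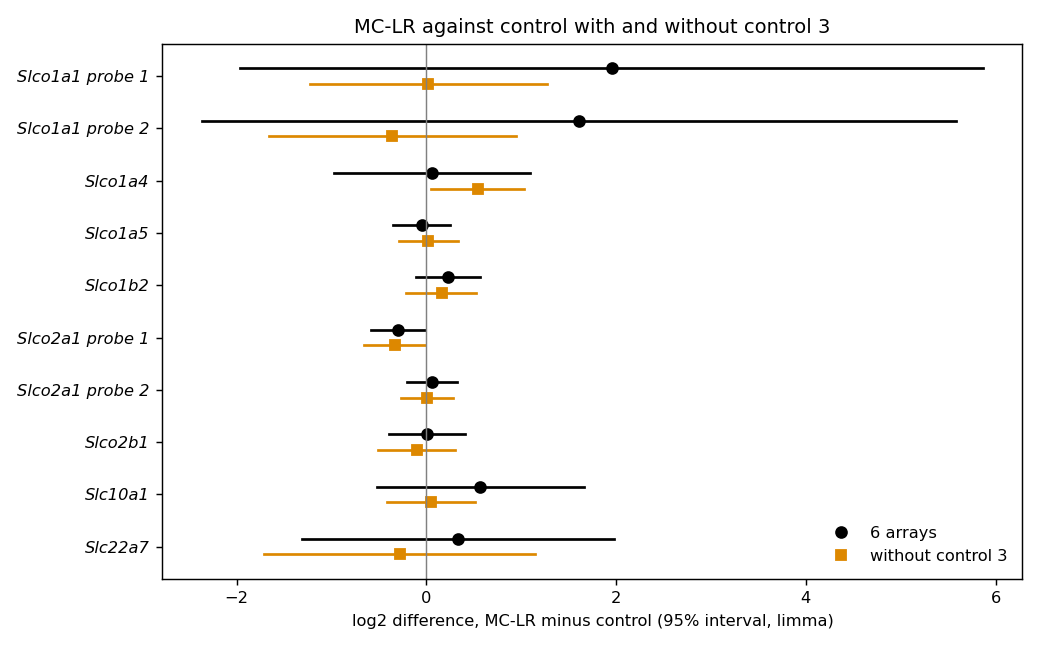
Log2 difference between MC-LR and control (horizontal axis) for the 10 member probes, one per row, with 95% intervals from limma. Black circles use all 6 arrays and orange squares leave out control 3, where the first Slco1a1 probe moves from 1.96 to 0.02 and Slco1a4 from 0.06 to 0.54.

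The spread within groups separated the carriers into a variable and a steady set. By the pooled standard deviation within groups, the Slco1a1 probes ranked 9 and 11 of 28507 probes, at 2.49 and 2.45, against a median of 0.20 over all probes. Slc22a7 (1.02), Slc10a1 (0.67) and Slco1a4 (0.63) also lay well above that median. Slco2b1 (0.22), Slco1b2 (0.17), Slco1a5 (0.14) and the Slco2a1 probes (0.12 and 0.10) lay near or below it. These values include control 3, and the place of Slco1a4 and Slc10a1 among the variable carriers comes from it. Without control 3 the standard errors of their differences were 0.19 and 0.18, near the 0.16 of Slco2b1, while those of Slco1a1 (0.49 and 0.51) and Slc22a7 (0.56) stayed larger.

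Control 3 was examined by itself after its values were seen, and with 1 array there is no test. Against the mean of controls 1 and 2 its log2 signal differed by -5.81 and -5.90 at the Slco1a1 probes, which is 56.1-fold and 59.6-fold lower. It was 3.59-fold lower for Slc22a7 and 2.96-fold lower for Slc10a1, and 2.74-fold higher for Slco1a4. The Slco1a1 values in control 3, 4.69 and 4.79, were still well above background on that array. More than 1 log2 unit below all other arrays lay 3 of the 10 member probes, both of Slco1a1 and that of Slc10a1, beside 0.396% of all probes. More than 1 above all others lay 0 of the 10, beside 0.765%. Control 3 lay outside the range of the other 5 arrays in either direction at 8 of 10 member probes, beside 43.2% of all probes. This count holds both Slco1a1 probes, and some of the steps are very small. The log2 gap to the nearest other array was only -0.07 for Slco1b2, 0.06 for Slco1a5 and -0.03 for the dimmer Slco2a1 probe. It was -0.50 for Slc22a7, 0.57 for Slco1a4 and larger for Slc10a1 and Slco1a1.

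Among 18905 genes ranked by how far control 3 fell below the nearest other array, Slco1a1 was first, Slc10a1 was at rank 33 and Slc22a7 at rank 395. Next after Slco1a1 came Hsd3b5, a male-predominant liver steroid dehydrogenase, at 13.11, 13.07 and 7.06 in controls and 14.01, 11.64 and 12.86 with MC-LR. It had the same low arrays as Slco1a1. Control 3 was also the lowest array for Cyp8b1, the sterol 12-alpha-hydroxylase that sets the share of cholic acid, at 11.86, 11.51 and 8.43 in controls and 11.61, 10.55 and 11.08 with MC-LR. On the opposite side Sult1e1, the estrogen sulfotransferase, stood at 9.12, 9.34 and 13.98 in controls and 9.94, 9.50 and 10.15 with MC-LR, and control 3 was the highest array.

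Gene lists written after these values were seen describe what else was high or low in control 3. Of 18 genes known as male-biased in mouse liver, control 3 was the lowest of the 6 arrays for 15, with a median of -0.57 against the mean of controls 1 and 2. Over all 18905 genes it was the lowest array for 23.3% and the highest for 21.1%, the shares against which these counts are read. Of 15 genes known as female-biased, it was the highest for 3 and the lowest for 3 (20.0% each, near the shares over all genes), with a median of 0.14. The 4 genes of the Y chromosome had a median of 0.05. Of 15 inflammatory cytokines and NF-kB targets, control 3 was the highest array for 13 (86.7%, beside 21.1% of all genes), with a median of 2.02. Ccl20, a chemokine, stood at 8.50, 8.30 and 12.89 in controls and 8.87, 10.12 and 9.74 with MC-LR, and Tnf stood at 6.14, 5.72 and 8.26 in controls and 6.40, 6.54 and 6.14 with MC-LR. Of 10 Kupffer cell markers, control 3 was the highest for 9 (90.0%, beside the same 21.1%), with a median of 0.72. The median deviation of these markers by array ran from -0.09 to 0.65 in controls and from -0.53 to 0.02 with MC-LR. The 9 hepatocyte markers ran from -1.05 (Apoa1) to 0.61 (Tat) with a median of 0.09, and over all genes the median was -0.02. The part of the inflammatory, male-biased and Kupffer genes in the transporter values of control 3 was not tested.

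**Figure D3:**
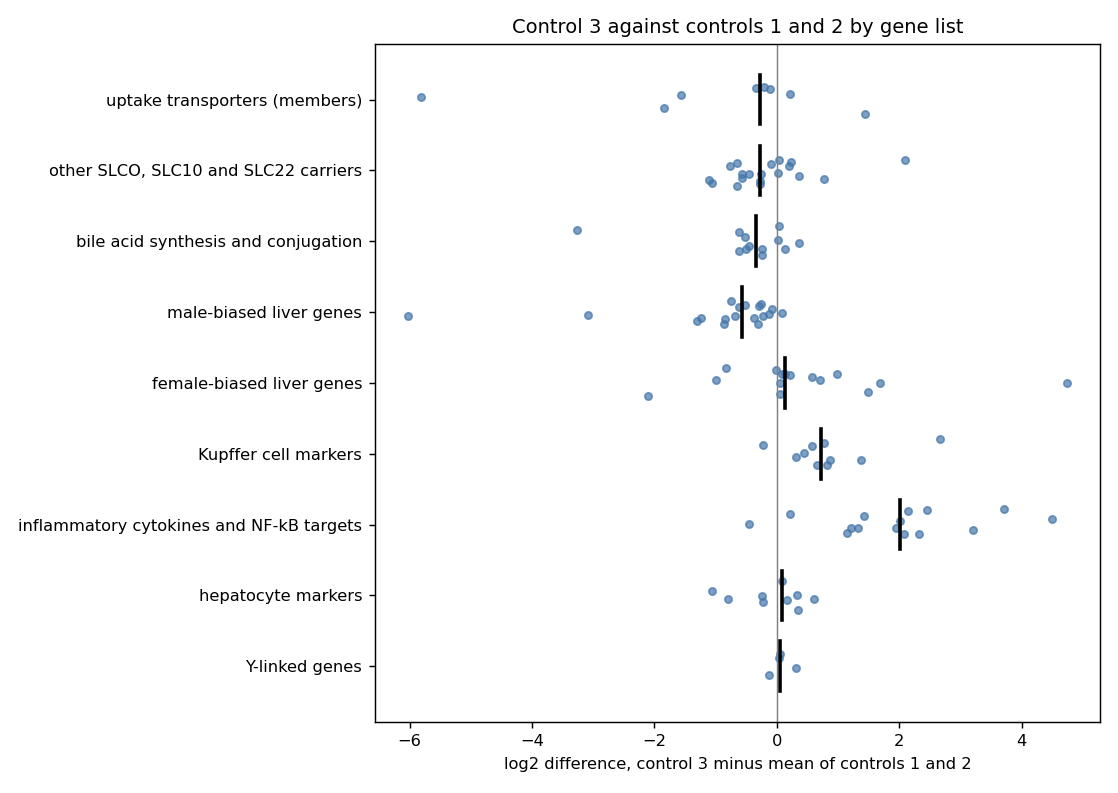
Log2 difference between control 3 and the mean of controls 1 and 2 (horizontal axis) for the genes of 9 lists, one point per gene (vertical scatter within a row has no meaning) and a black bar at the median. Among the transporters Slco1a1 lies farthest to the left at -5.81 and Slco1a4 to the right at 1.45, and the inflammatory list has its median at 2.02.

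Promoter sequences are shown for Slco1a1 and Slc10a1, whose probes in control 3 lay more than 1 log2 unit below all other arrays. That of Slco1a4, for which control 3 was the highest array, is shown beside them. Control 3 was also the lowest array for Slc22a7 and Slco1b2, so the genes shown are not all of the low ones. They are RefSeq promoters of 300 bases on GRCm38.p6, 250 before and 50 after the start of the gene, printed 5′ to 3′ on the gene's strand. Of the 8 genes, 7 had an entry, with 11 promoters in all, and Slc22a7 had none. Capitals mark matches, on either strand, to the core of the TATA box (TATAAA) or to a STAT5-type sequence (TTCNNNGAA). The motifs did not overlap each other in the promoters shown.
Slco1a1, chr6:141946913-141947212, minus strand: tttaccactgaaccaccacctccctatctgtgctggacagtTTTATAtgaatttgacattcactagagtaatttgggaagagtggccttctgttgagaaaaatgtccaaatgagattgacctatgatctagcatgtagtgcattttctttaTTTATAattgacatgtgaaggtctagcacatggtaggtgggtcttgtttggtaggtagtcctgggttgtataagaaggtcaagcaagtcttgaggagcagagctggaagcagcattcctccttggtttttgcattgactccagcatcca
Slc10a1, chr12:80968656-80968955, minus strand: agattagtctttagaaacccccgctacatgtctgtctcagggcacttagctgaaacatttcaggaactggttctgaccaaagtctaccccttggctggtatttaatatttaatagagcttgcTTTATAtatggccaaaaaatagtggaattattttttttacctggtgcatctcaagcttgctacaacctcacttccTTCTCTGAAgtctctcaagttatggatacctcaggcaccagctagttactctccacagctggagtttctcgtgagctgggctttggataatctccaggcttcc
Slco1a4, chr6:141856171-141856470, minus strand: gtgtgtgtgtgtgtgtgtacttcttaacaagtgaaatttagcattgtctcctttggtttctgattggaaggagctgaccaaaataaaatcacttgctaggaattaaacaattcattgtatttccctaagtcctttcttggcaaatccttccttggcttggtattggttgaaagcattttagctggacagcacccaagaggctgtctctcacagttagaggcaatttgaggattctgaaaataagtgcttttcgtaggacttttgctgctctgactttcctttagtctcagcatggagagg

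The Slco1a1 promoter held 2 matches to TATAAA, both on the reverse strand, whose first bases lay at -209 and -99 from the start. Slc10a1 had 2 entries, and the one shown held 1 match to TTCNNNGAA at -53 and 1 to TATAAA, on the reverse strand, at -128, while the other held none of the letters searched. The window of Slco1a4 held none of these letters. Among 32851 promoters of the same length, 13.6% held TATAAA and 8.3% held TTCNNNGAA. These matches are descriptions of letters, and Slco1a1 and Slc10a1 shared the TATAAA letters but not the TTCNNNGAA letters. The TATAAA letters were not particular to them: promoters of Slco1a5, Slco1b2 and Slco2a1, not shown, also held them, while those of Slco2b1 did not. TTCNNNGAA also matched in promoters of Slco1a5, Slco1b2 and Slco2b1. The HNF1 half-site GTTAAT, held by 7.1% of all promoters, was searched too and matched among the carriers only in Slco1b2.

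The other genes of bile acid and organic anion handling were read from lists by role, and 0 genes of any of these lists passed the adjusted threshold (limma over all probes). Over all 18905 genes, 7.52% were higher and 5.36% lower at an unadjusted p under 0.05. Of 19 other SLCO, SLC10 and SLC22 carriers, 3 were higher and 0 lower at that p, with a median log2 difference of 0.17, which was -0.04 without control 3. These were Slc22a4, an ergothioneine and carnitine carrier, with 8.30 ± 0.13 in controls and 8.98 ± 0.30 with MC-LR (SD, n = 3; adjusted p = 0.262), Slc22a3, an organic cation carrier (adjusted p = 0.277), and Slco1c1, a thyroid hormone carrier (adjusted p = 0.328). Slc22a3 and Slco1c1 were each well above background on 1 of 3 control arrays and on all MC-LR arrays, so they were kept only through the group in which they were higher, and their place in this count is not support for a difference. Signals of Slc22a3 were 3.71, 3.41 and 3.92 in controls and 4.15, 5.05 and 5.32 with MC-LR.

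Exporters carry bile acids, conjugates and sterols out of the hepatocyte. Of 15 measured, 3 were higher and 0 lower at an unadjusted p under 0.05, with a median of 0.01 that was 0.21 without control 3. Abcb1a, a P-glycoprotein, stood at 3.95, 4.43 and 4.99 in controls and at 5.52, 5.98 and 5.90 with MC-LR, a difference of 1.34 ± 0.28 (log2, SE; adjusted p = 0.232, limma). The groups did not overlap, and control 3 was the control nearest to the MC-LR arrays. Abcg5, one partner of the sterol exporter, differed by 0.73 ± 0.25 (adjusted p = 0.325) and Abcc6 by 0.46 ± 0.18 (adjusted p = 0.366).

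Bile acid synthesis and conjugation genes had 12 measured members, of which 1 was higher and 1 lower at an unadjusted p under 0.05, with a median of 0.07 that was -0.07 without control 3. Acox2, the peroxisomal oxidase that shortens the bile acid side chain, stood at 14.41, 14.46 and 14.47 in controls and at 13.91, 14.06 and 13.71 with MC-LR. The groups did not overlap, and the difference was -0.56 ± 0.12 (log2, SE; adjusted p = 0.234, limma). Akr1d1, the steroid 5-beta-reductase, differed by 0.50 (adjusted p = 0.365), and Hsd3b7 by -0.46 (unadjusted p = 0.0811, adjusted p = 0.441).

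Regulators and scaffolds of the carriers had 20 measured members, with 4 higher and 3 lower at an unadjusted p under 0.05 and a median of 0.07 that was -0.01 without control 3. Slc9a3r1, a PDZ scaffold that anchors membrane transporters, stood at 11.27, 11.17 and 11.17 in controls and at 11.92, 11.62 and 12.06 with MC-LR (difference 0.67 ± 0.14, log2, SE; adjusted p = 0.232, limma). Nr0b2 encodes SHP, the bile-acid-induced repressor that lowers transcription of Slc10a1. Its signals were 9.90, 10.15 and 9.77 in controls and 8.86, 8.64 and 9.37 with MC-LR, so the groups were apart. The difference was -0.98 ± 0.21 (adjusted p = 0.24) and was -0.81 with slide as a block. Rxra, the shared partner of the nuclear receptors, differed by 0.54 ± 0.15 (adjusted p = 0.276). For these genes, in contrast to Slco1a1 and Slc10a1, control 3 lay within 0.38 of the mean of the other controls.

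**Figure D4:**
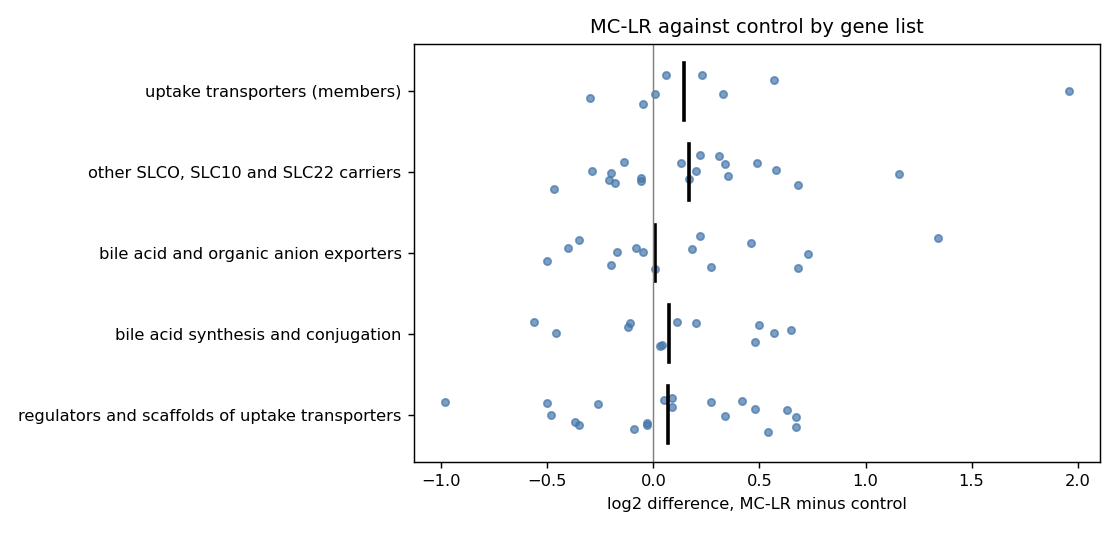
Log2 difference between MC-LR and control (horizontal axis) for the transporters and 4 lists of related genes, one point per gene (vertical scatter within a row has no meaning) and a black bar at the median. With all 6 arrays the medians lie between 0.01 and 0.17 and Slco1a1 is far to the right at 1.96. Without control 3 the medians are, from top to bottom, 0.02, -0.04, 0.21, -0.07 and -0.01, so that 3 turn sign, and Slco1a1 is at 0.02.

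Clock genes had the widest median difference among the lists read here. Of 16, 9 were higher and 2 lower with MC-LR at an unadjusted p under 0.05, beside 7.52% and 5.36% of all genes. The adjusted threshold was passed by 0 of them. Their median log2 difference was 1.05, and 1.16 without control 3. Hlf, a clock-output transcription factor, averaged 10.39 ± 0.27 in controls and 11.38 ± 0.09 with MC-LR (SD, n = 3; adjusted p = 0.178, limma). Cry2, a clock repressor, differed by 1.21 (adjusted p = 0.21). Ciart, which has the next smallest p, was well above background on 1 of 3 controls, and Per3 on 2 of 3. Both were kept only through the MC-LR group, in which they were higher, so no difference is given for them. They remain in the count of 9 and in the medians, and their place there is not support for a difference. The hour at which the livers were taken is not given in the sources used here, and the part of the clock genes in the transporter values was not tested.

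For the pair of carriers with the smallest unadjusted p, the genes with the most similar pattern over the 6 arrays were found by Pearson correlation of log2 signals, as a description of 6 values that share their arrays. The brighter Slco2a1 probe was most like Med24 (r = 0.996), Gmeb1 (r = 0.9929) and Arhgef10l (r = 0.9746). Among the genes most like Slco1b2 were Acvr2b (r = 0.9951) and Atrn (r = 0.9856). Acvr2b, an activin receptor, stood at 5.43, 5.98 and 5.12 in controls and at 6.54, 5.78 and 6.04 with MC-LR, with MC-LR 1 highest and control 3 lowest, as for Slco1b2.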

How the data were processed

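Expression was measured with single-colour Agilent arrays in 6 liver samples, 3 control and 3 MC-LR, grouped and numbered by their titles. Spot intensity was extracted by the authors with Agilent Feature Extraction 10.7 (submitters' processing notes), and per the file headers the processed signal had its background subtracted. The authors then quantile normalized the arrays in GeneSpring, as the design text of the series says, and deposited the result as log2 values. Against log2 processed signal these values gave r = 0.9982 to 1.0 array by array, and every array had a median of 5.94, so they are log2 and not centred by gene.

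The deposited log2 values were used. Probes had to lie well above background on every array of 1 group or both, and 28507 of 41174 probes, of 18905 genes, did so. The groups were compared probe by probe by a two-sided limma 3.58.1 fit under R 4.3.3, using eBayes with 4 residual and 2.18 prior degrees of freedom, Benjamini-Hochberg adjustment over the kept probes and a threshold of 0.05. The steps were tested on simulated data. The number of arrays limits the precision.

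Probes were named through RefSeq accessions of GRCm38.p6 (27668 probes), symbols (5589) or synonyms (478), and otherwise by the file (7439). The transporters and lists were chosen with earlier results of these data known. The lists of male-biased, female-biased, inflammatory and Y-linked genes were written after the values were seen and are descriptions. All probes of the 8 carriers are described, and in each other list of pathway or clock genes the 3 with the smallest p are named. Ccl20, Tnf and the genes farthest from the other arrays in control 3 were named after their values were seen. A gene was represented by its brightest kept probe. List members without a kept probe are not analysed here, and some genes that the naming rule selects are not reported here. Alternatives were other scalings, background correction (normexp, offset 50), filters, gene summaries, slide and replicate blocks, slide 2 alone, eBayes with trend and robust, a threshold of 0.1 and each array left out in turn. Other annotation of the arrays was not used here.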

Additional observations from a re-analysis of the deposited data

How the results depend on the processing

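Of the 10 member probes, 0 passed the threshold in the comparison or in any alternative run, and of 176 values of these probes under alternatives 162 kept their direction and 14 did not. The direction of Slco1a4 turned with slide as a fixed block and within slide 2 (-0.91 in each) and with slide as a random block (-0.319). With each array left out in turn, the log2 difference ran from -0.186 to 0.542 for Slco1a4, from -0.359 to 2.622 for the second Slco1a1 probe, from 0.02 to 2.943 for the first, from -0.122 to 0.019 for Slco1a5, from 0.143 (without MC-LR 1) to 0.325 for Slco1b2, from -0.105 to 0.135 for Slco2b1, from -0.284 to 0.862 for Slc22a7 and from 0.045 to 0.858 for Slc10a1. The low ends for Slco1a1, Slc10a1 and Slc22a7 and the high end for Slco1a4 came without control 3. The directions of Slco1b2, Slc10a1, the first Slco1a1 probe and both Slco2a1 probes were kept under all alternatives run. The median over the 8 carriers, 0.142, ran from -0.082 to 0.234 with 1 array left out. Over all 28507 probes, 3 passed. The count was 1 with 75th percentile scaling, 1 with probes well above background on all arrays, 13 with a fixed slide block, 0 by limma on slide 2 alone (where 3322 had an unadjusted p under 0.05) and 5 at an adjusted p under 0.1. It ran from 1 (without MC-LR 1) to 70 (without control 3, where slide and group cannot be told apart) with 1 array left out.

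With the replicate number as a block the count over all probes was 0 (limma, 2875 at an unadjusted p under 0.05). The numbers were not taken to pair the samples. Same-numbered arrays correlated in their deviations from the group means at r = 0.169, -0.304 and -0.176, and differently numbered arrays at -0.196 to 0.346. With 3 arrays per group these values cannot decide whether the numbers pair animals. No carrier changed its side of the threshold with the replicate block. Within slide 2 there is 1 control, so the spread there comes from the MC-LR arrays. Dim probes were limited by background rather than by saturation: on all arrays, 1 of 2 Slco1a5 probes lay too close to background to be tested.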
